A study of Papaver somniferum with 9 samples.

Results

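The 100 unigenes described here fell stepwise along the opium poppy plant, with every root sample above every stem sample and every stem sample above every leaf sample. A unigene is a non-redundant gene of the full-length PacBio transcriptome that was built for this plant, and its level is given as RPKM, the reads of a unigene scaled by its length and by all mapped reads of the sample. The members were chosen by their own values. Of the 61856 unigenes in the series, 20528 were above 1 RPKM in all 9 samples. For each of these, step 1 was the lowest root value divided by the highest stem value, and step 2 was the lowest stem value divided by the highest leaf value. Both steps were above 1 in 507 unigenes, and the 100 with the largest smaller step were kept. Since root, stem and leaf values all entered the choice, the differences between these tissues are given as a description of the 100 and not as tests of them.

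The plants were Papaver somniferum of the original cultivar B1, grown in an experimental plot and sampled at filling stage, when the petals had fallen and the seeds were filling. Root was an underground piece, stem a piece from the middle of the stem, and leaf the top leaf. Each tissue had 3 samples, called independent by the authors, though neither the labels nor the methods say whether 1 number in root, stem and leaf marks 1 plant. All 3 tissues were without treatment, and none is a control for another. No cell types were separated, so fewer cells of a type and less RNA per cell cannot be told apart in any value below.

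Root, stem and leaf of this species differ in what they make and store. Benzylisoquinoline alkaloids, the family of morphine and sanguinarine, are made by enzymes several of which sit in the sieve elements of the phloem, and they are stored in laticifers, the latex cells that run beside the phloem. Sanguinarine is best known from roots and morphine from the latex of the aerial parts. The middle stem shares with the root a large amount of vascular tissue, while the top leaf is mainly photosynthetic tissue. These are background facts only, because the expression values do not pair unigene IDs with gene names. The RefSeq gene annotation of assembly ASM357369v1 held none of the IDs (0 of 61856, and 0 of the 100). The authors describe a functional annotation of the unigenes, which was not used here, so no function or sequence is given for any of the 100, and the tissue labels were not checked against marker genes.

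Summed over all unigenes, the RPKM of a sample was 898884 to 958702 in root, 969280 to 1092543 in stem and 1041238 to 1090568 in leaf. The authors list the sequenced bases of each sample, which were not used here, but without read counts the number of reads behind a single value is unknown, and no counting interval can be given. The RNA integrity listed by the authors was lower in the leaf samples than in the root and stem samples, so the effects of leaf and of a lower integrity cannot be told apart. The median ratio of a sample's unigenes to their geometric mean over the 9 samples was 0.981 to 1.25 in root, 0.750 to 1.18 in stem and 0.849 to 0.944 in leaf. The lowest value was that of stem replicate 3, which stood apart from stem replicates 1 and 2 (1.18 and 1.12). Root replicate 3 was also the lowest of its tissue, at 0.981 against 1.23 and 1.25 in root replicates 1 and 2.

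The choice of 100 cut through a continuous range. The smaller step was 2.68 at rank 1, had a median of 1.39 over the 100, and was 1.238 at rank 100. Just inside the limit, PB.53961.3 at rank 99 had 15.04, 13.93 and 10.92 RPKM in root replicates 1, 2 and 3, 8.41, 8.81 and 8.46 in stem, and 2.21, 1.34 and 2.32 in leaf. PB.7716.5 at rank 100 had 4.82, 5.46 and 3.80 RPKM in root, 2.82, 3.07 and 2.08 in stem, and 1.35, 1.15 and 1.15 in leaf, the lowest mean root level of all 100, 4.69 ± 0.837 RPKM (SD, n = 3). Just outside, PB.57282.1, the first unigene left out, had a smaller step of 1.2376, with 150.02, 408.92 and 87.82 RPKM in root, 70.76, 70.96 and 49.56 in stem, and 7.04, 13.36 and 9.96 in leaf. PB.42069.1, the next one, had a smaller step of 1.2368, with 14.10, 12.17 and 13.19 RPKM in root, 9.84, 9.23 and 9.01 in stem, and 6.81, 6.92 and 6.84 in leaf. The members on the inside of the limit and the unigenes on the outside hardly differed in the size of the gap.

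The limit of 1 RPKM in every sample also shaped the set, because a unigene that falls far enough in leaf drops out of it. With no limit on the level, 1064 unigenes had both steps above 1, and 557 of them were at or under 1 RPKM in at least 1 sample, which in each case included a leaf sample. Of the 1064, 48 were listed at 0 RPKM in all 3 leaf samples. A smaller step at least as large as that of rank 100 was found in 395 of the 1064, of which 295 are not among the 100. The 100 are therefore the stepwise falling unigenes that were still measured above 1 RPKM in leaf, and not the steepest falls of the table.

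Over the 100 unigenes the median level was 27.3, 28.9 and 22.0 RPKM in root replicates 1, 2 and 3, against 9.89, 11.1 and 9.55 RPKM in stem, and 3.16, 3.05 and 3.82 RPKM in leaf. The 20528 unigenes above 1 RPKM in all samples had medians of 10.5, 10.8 and 8.60 RPKM in root, 11.1, 10.7 and 7.57 in stem, and 8.48, 7.90 and 8.69 in leaf. The typical member thus stood above the typical one of these 20528 unigenes in root, near it in stem and below it in leaf. By tissue mean, the median member was at percentile 75.6 of these unigenes in root, 49.1 in stem and 17.5 in leaf. Means above 10 RPKM were reached by 86 members in root, 51 in stem and 17 in leaf. Above 100 RPKM there were 18 in root, 4 in stem and 0 in leaf. The highest leaf mean belonged to PB.12441.6, named after its values were seen, which had 276.23, 239.12 and 212.75 RPKM in root, 140.54, 122.08 and 106.75 in stem, and 80.14, 79.35 and 78.28 in leaf.

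**Figure D1:**
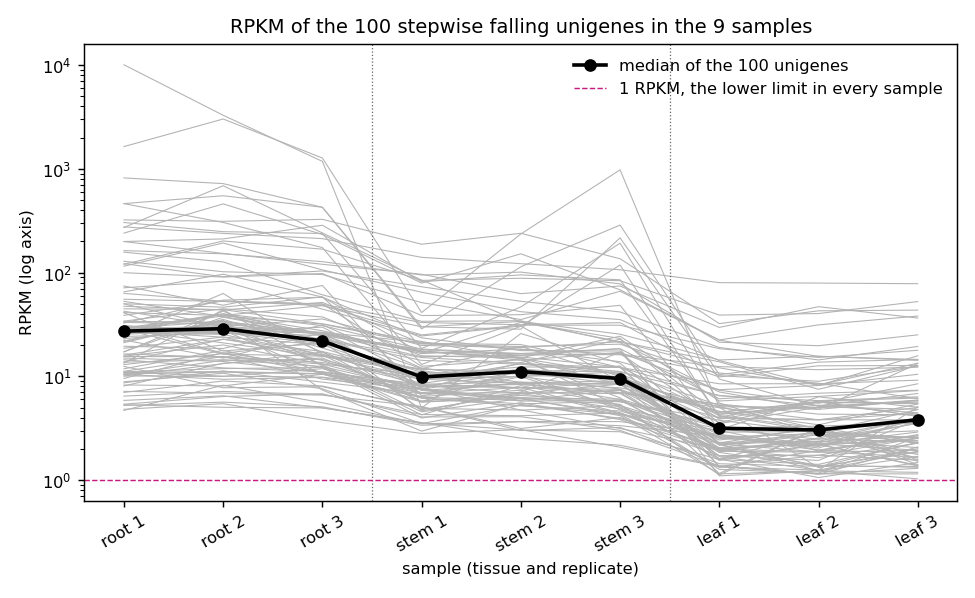
RPKM (log axis) of the 100 stepwise falling unigenes in the 9 samples, with 1 grey line for each unigene and the median of the 100 as a black line with points. The lines join the samples for reading only, since replicates have no order. The median lay between 22.0 and 28.9 RPKM in root, between 9.55 and 11.1 in stem and between 3.05 and 3.82 in leaf, and the dashed line marks the limit of 1 RPKM that each unigene had to pass.

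The fall from root to leaf had a median of 6.02-fold by tissue means, with quartiles of 3.98 and 11.2 and a range from 2.24 to 2122. It was above 4-fold in 74 members, above 10-fold in 32, above 50-fold in 7 and above 100-fold in 2. The median ratio of means was 2.09 for root over stem (range 1.40 to 329) and 2.74 for stem over leaf (range 1.45 to 150.2). The gaps between the tissues, which the choice used, were narrower than these ratios. Step 1 had a median of 1.44 and step 2 of 1.69, and both steps were above 2 in 4 members and above 1.5 in 27. Step 1, between root and stem, was the smaller one in 76 members, and step 2, between stem and leaf, in 24. Without stem replicate 3 the median ratio of means was 2.02 for root over stem and 2.68 for stem over leaf, the highest ratio for stem over leaf was 49.7, the median step 1 was 1.49 and the median step 2 was 2.06, with step 1 the smaller one in 75 members.

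PB.9835.3, at rank 1, had the largest smaller step of the 100. It had 38.77, 53.34 and 49.98 RPKM in root replicates 1, 2 and 3, 12.53, 14.49 and 6.21 RPKM in stem, and 1.55, 2.20 and 1.39 RPKM in leaf. Step 1 was 2.68 and step 2 was 2.82, so the gaps were almost equal. By tissue means the fall was 4.28-fold from root to stem, 6.46-fold from stem to leaf and 27.6-fold from root to leaf. PB.5108.7 at rank 2 had 25.57, 32.14 and 12.96 RPKM in root, 4.56, 6.11 and 4.19 in stem, and 1.15, 1.23 and 1.69 in leaf. Root replicate 3 was the lowest root sample there, and still 2.12 times the highest stem sample. PB.54205.2 at rank 4 had 17.33, 37.21 and 24.99 RPKM in root, 7.95, 8.37 and 6.99 in stem, and 1.85, 1.36 and 1.36 in leaf. Its stem samples lay within a narrow band, 7.77 ± 0.707 RPKM, while its root samples spread over 26.5 ± 10.03 RPKM (SD, n = 3 each).

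Members at the next ranks showed other shapes within the same order of tissues. PB.51159.2 at rank 3 had 199.65, 211.54 and 286.38 RPKM in root, 81.72, 95.22 and 85.38 in stem, and 4.17, 2.98 and 1.76 in leaf, with the largest step 2 of the 100, 19.6. Most of its fall lay between stem and leaf, where the means differed by 29.4-fold, against 2.66-fold for root over stem. PB.11476.8 at rank 8 had 99.91, 90.69 and 97.98 RPKM in root, 38.62, 39.34 and 48.44 in stem, and 3.06, 6.35 and 5.05 in leaf, again with the larger fall between stem and leaf, 8.74-fold. PB.57386.1 at rank 6 went the other way, with 74.39, 48.53 and 75.23 RPKM in root, 6.48, 9.93 and 5.01 in stem, and 1.27, 1.17 and 2.60 in leaf, and step 1 was 4.89 against 1.93 for step 2. PB.58681.3 at rank 7 had 30.71, 26.30 and 29.87 RPKM in root, 9.47, 9.95 and 7.55 in stem, and 2.74, 2.04 and 3.93 in leaf. Its tissue means differed by 3.22-fold for root over stem and by 3.10-fold for stem over leaf, an even fall by means. Its step 1 was 2.64 and its step 2 was 1.92. PB.54102.1 at rank 10 had 65.32, 96.64 and 58.21 RPKM in root, 16.79, 33.22 and 23.22 in stem, and 3.51, 5.05 and 5.92 in leaf, and replicate 2 was the highest sample of both root and stem.

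**Figure D2:**
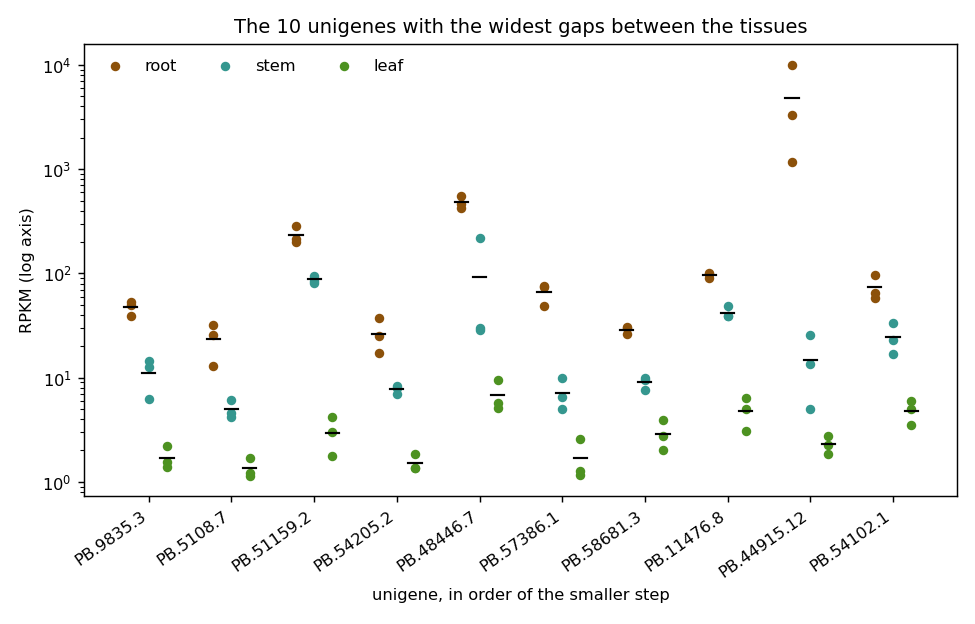
RPKM (log axis) in root, stem and leaf for the 10 unigenes with the largest smaller step, in that order from left to right, with 1 point for each sample and a bar at the mean of the 3 samples of a tissue. No root point lies as low as a stem point and no stem point as low as a leaf point, which the choice of members fixed, while the spread within a tissue differs from PB.11476.8 (root 90.69 to 99.91 RPKM) to PB.44915.12 (root 1181.60 to 10088.93 RPKM).

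The share of the whole log2 fall that lay between root and stem, computed from the tissue means, had a median of 43.1% over the members (quartiles 37.1% and 50.7%, range 20.1% to 75.7%). It was above 50% in 28 members. With limits set after the values were seen, 57 members had 40% to 60% of their fall between root and stem, 35 had less and 8 had more. Without stem replicate 3 the median share was 42.7%, and these counts were 56, 37 and 7. The lowest share belonged to PB.10716.1, named after its values were seen, with 50.05, 29.72 and 25.60 RPKM in root, 18.17, 16.02 and 18.47 in stem, and 1.10, 1.23 and 1.03 in leaf. Its stem level was 2.001-fold under its root level and 15.7-fold over its leaf level, and its leaf values were close to the limit of 1 RPKM. The most even pair of steps was that of PB.47512.1, with 4.70, 8.23 and 5.58 RPKM in root, 3.49, 3.68 and 3.67 in stem, and 2.75, 2.24 and 1.94 in leaf, where step 1 was 1.28 and step 2 was 1.27. The fall from root to leaf was 31.4-fold in PB.10716.1 and 2.67-fold in PB.47512.1.

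Of the 8 members with more than 60% of their fall between root and stem, 3 are given here beside PB.44915.12 and PB.57386.1, chosen after their values were seen. PB.44225.1 had 21.92, 34.84 and 7.39 RPKM in root, 2.97, 5.38 and 3.94 in stem, and 1.90, 1.86 and 1.94 in leaf, so that 68.3% of its fall lay between root and stem. Its root samples were wide apart, and root replicate 3 was only 1.37 times the highest stem sample. PB.8744.2 had 22.39, 15.02 and 26.63 RPKM in root, 7.31, 8.56 and 8.39 in stem, and 4.51, 5.68 and 4.13 in leaf, with 64.8% of the fall in the first step. PB.60849.2 had 272.55, 688.16 and 241.47 RPKM in root, 84.81, 33.37 and 21.62 in stem, and 13.82, 7.52 and 12.64 in leaf. Root replicate 2 stood above the other root samples in this member and stem replicate 1 above the other stems, so the high samples of root and stem did not share a number.

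Members also differed in how level they were within a tissue. PB.6580.17 had the smallest root spread of the 100, a coefficient of variation (the SD as a percentage of the mean) of 2.26%, and is named for that after its values were seen. It had 322.55, 312.48 and 326.54 RPKM in root, 187.96, 239.55 and 136.25 in stem, and 32.27, 42.88 and 43.53 in leaf, and its stem samples were the more spread ones. PB.56415.1, with the lowest ratio of root over stem means in the set (1.40), had 8.67, 11.30 and 8.81 RPKM in root, 6.80, 6.97 and 6.83 in stem, and 2.03, 2.35 and 2.67 in leaf. Its place in the set rested on a narrow stem range, since the lowest root sample was 1.24 times the highest stem sample. PB.39295.1 had the smallest fall from root to leaf, 2.24-fold, with 5.25, 5.65 and 5.09 RPKM in root, 3.38, 3.65 and 3.35 in stem, and 2.67, 1.94 and 2.53 in leaf.

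**Figure D3:**
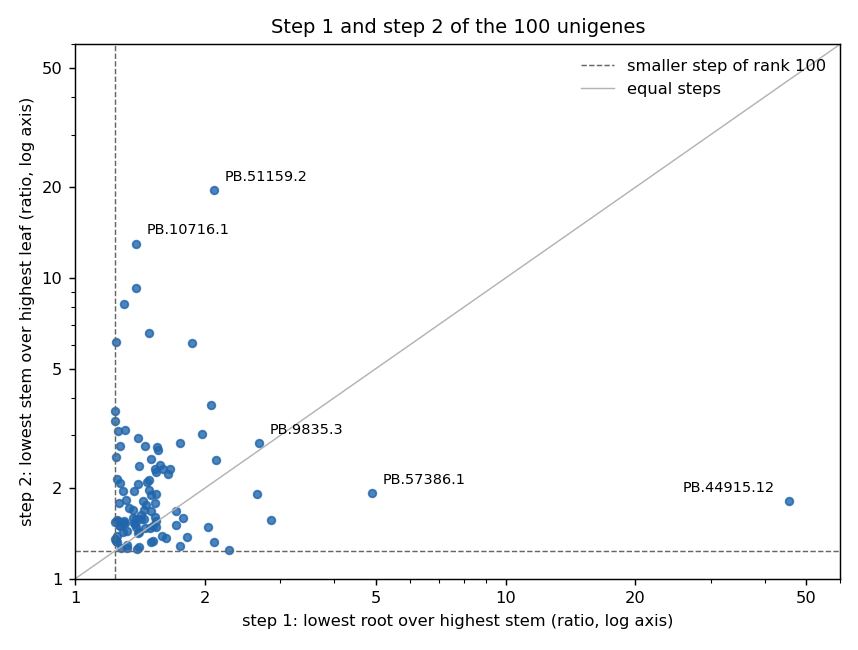
Step 1 (lowest root over highest stem, horizontal log axis) and step 2 (lowest stem over highest leaf, vertical log axis) of the 100 unigenes, with 1 point for each. The dashed lines mark the smaller step of rank 100, 1.238, and the grey line marks equal steps. More points lie above the line of equal steps (76) than below it (24), and PB.44915.12 (step 1 of 45.7) and PB.51159.2 (step 2 of 19.6) lie far from the rest.

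A single member carried much of the RNA of the set in root. PB.44915.12, at rank 9, had 10088.93, 3288.46 and 1181.60 RPKM in root replicates 1, 2 and 3, against 4.97, 25.88 and 13.39 RPKM in stem, and 2.24, 1.87 and 2.75 RPKM in leaf. Its root samples differed by 8.54-fold among themselves, the widest root range of the 100, and the lowest was still 45.7 times the highest stem sample. It held the largest step 1, the highest root mean (4853 ± 4655 RPKM, SD, n = 3) and the most uneven pair of steps. Together the 100 unigenes took 1.89%, 1.48% and 0.810% of the summed RPKM in root replicates 1, 2 and 3, 0.218%, 0.231% and 0.318% in stem, and 0.0631%, 0.0610% and 0.0674% in leaf. PB.44915.12 made up 55.6%, 24.7% and 15.5% of the members' sum in root replicates 1, 2 and 3. Without it the other members took 0.840%, 1.11% and 0.684% of the summed RPKM in root, and root replicate 2 in place of root replicate 1 was the highest.

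Stem replicate 3 was over 2 times both other stem samples in 6 members, a group singled out after the values were seen. Among all 20528 unigenes above 1 RPKM in every sample, stem replicate 3 exceeded the other stems in this way in 5.34%, close to the 6 of 100 here. In PB.48446.7, at rank 5, root had 463.24, 551.37 and 426.55 RPKM, stem had 30.07, 28.51 and 216.41 RPKM, and leaf had 9.43, 5.16 and 5.68 RPKM. Stem replicate 3 was 7.20 times the higher of the other stems. PB.60008.1, at rank 71, had 1641.28, 3026.86 and 1273.11 RPKM in root, 41.25, 235.84 and 979.73 in stem, and 5.04, 1.32 and 2.01 in leaf, the second highest root mean of the set (1980 ± 925 RPKM, SD, n = 3). PB.6148.3 had 819.02, 721.30 and 426.66 RPKM in root, 28.71, 113.94 and 287.53 in stem, and 10.40, 13.73 and 14.57 in leaf. PB.6615.16 had 462.71, 304.72 and 174.35 RPKM in root, 13.03, 30.46 and 118.42 in stem, and 4.07, 5.78 and 6.19 in leaf. PB.59612.1 had 304.43, 248.40 and 238.56 RPKM in root, 18.59, 46.73 and 192.34 in stem, and 5.55, 2.74 and 2.99 in leaf. PB.49889.2 was the low one of the group, with 21.78, 33.87 and 25.32 RPKM in root, 4.65, 7.09 and 17.16 in stem, and 2.23, 1.23 and 1.19 in leaf. In 5 of the 6, all but PB.49889.2, the lowest root sample was replicate 3 and the highest stem sample was replicate 3, so the gap between root and stem was set by samples with the same number. Without stem replicate 3, step 1 would be 14.2 in place of 1.97 in PB.48446.7, 5.40 in place of 1.30 in PB.60008.1, and between 3.07 and 5.72 in the other members of this group, in which it was 1.24 to 1.48. The ratio of root over stem means would be 16.4 in place of 5.24 in PB.48446.7, 14.3 in place of 4.73 in PB.60008.1, 8.08 in place of 3.07 in PB.59612.1, 14.4 in place of 5.82 in PB.6615.16, 9.19 in place of 4.57 in PB.6148.3 and 4.598 in place of 2.80 in PB.49889.2. Step 2 was the same with and without that sample in all 6. The choice of the 6 fixed these outcomes, since step 1 uses the highest stem sample and step 2 the lowest. The higher ratios of means without stem replicate 3 follow from the same choice.

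**Figure D4:**
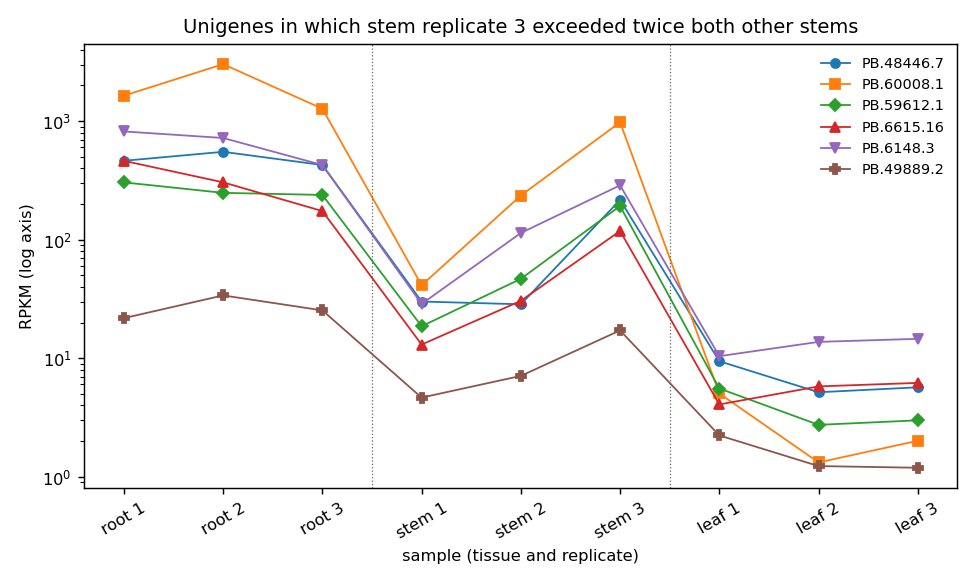
RPKM (log axis) in the 9 samples for the 6 members in which stem replicate 3 was over 2 times both other stem samples, with 1 line and 1 marker shape for each unigene. The lines join the samples for reading only. Stem replicate 3 lies between 2.42 and 7.20 times above the higher of stem replicates 1 and 2, and in each case still below the lowest root sample.

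The choice treated the replicates of a tissue alike, so it did not fix which replicate was the highest. Root replicate 2 was the highest root sample in 46 members, root replicate 1 in 38 and root replicate 3 in 16, against 40.8%, 39.6% and 19.5% of the 20528 unigenes above 1 RPKM in all samples. In stem, replicate 2 was the highest in 42 members, replicate 1 in 38 and replicate 3 in 20, against 33.1%, 45.1% and 21.8%. In leaf, replicate 3 was the highest in 49 members, replicate 1 in 28 and replicate 2 in 23, against 39.6%, 35.4% and 24.96%. The order of the replicates within root was thus the same in the members as in these 20528 unigenes, and in stem replicates 1 and 2 changed places. The lowest root sample, which enters step 1, was root replicate 3 in 61 members, against 58.4% of all these unigenes. The lowest stem sample, which enters step 2, was stem replicate 3 in 50 members, against 61.6%.

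The spread within tissues also entered the choice through the lowest and highest values, and is given as a description. The coefficient of variation over the 3 samples had a median of 18.2% in root, 16.6% in stem and 19.4% in leaf over the 100, and of 25.2%, 34.6% and 14.6% over the 20528 unigenes above 1 RPKM in all samples. The members were therefore less spread than these unigenes in root and stem and more spread in leaf. Their leaf levels were also low, with the median member at percentile 17.5 of these unigenes in leaf. The part of level in the spread was not tested. Across the 20528 unigenes, root and stem samples with the same number deviated together from their tissue means on the log2(RPKM + 1) scale. The Pearson correlations were 0.546, 0.598 and 0.622 for numbers 1, 2 and 3. Over the 100 members the same correlations were -0.19, 0.25 and -0.09, and the 6 pairs with different numbers ran from -0.33 to 0.28. Over the 507 with both steps above 1 they were 0.0883, 0.284 and 0.0988. These are correlations across unigenes of the same samples, which are not independent replicates, and a choice that asks for the lowest root sample to exceed the highest stem sample acts on the same deviations.

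**Figure D5:**
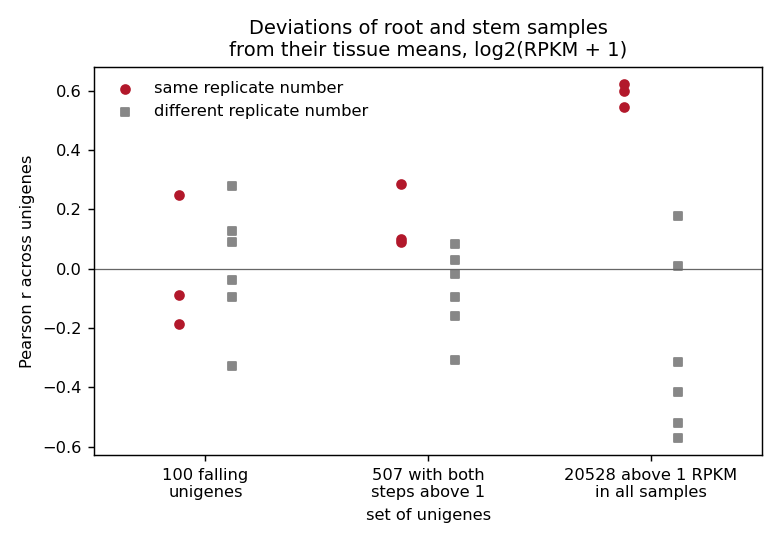
Pearson correlation, across unigenes, of the deviations of a root sample and a stem sample from their tissue means on the log2(RPKM + 1) scale, for the 100 members, the 507 unigenes with both steps above 1 and the 20528 above 1 RPKM in all samples. Circles are the 3 pairs with the same replicate number and squares the 6 pairs with different numbers. The circles lie between 0.546 and 0.622 for the 20528 and between -0.19 and 0.25 for the members, within the range of their squares.

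The model that was fitted to all unigenes gives the place of the members in the usual comparison of tissues, though the choice had used the same values and nothing is read from the counts. In limma on log2(RPKM + 1), with Benjamini-Hochberg adjustment over 50225 unigenes (those that exceeded 0.1 RPKM in 3 or more samples), a unigene was called at an adjusted p under 0.05 and a fold change of at least 2. For root over stem, 14 of the 100 were called, against 0.434% of all unigenes tested (218). For stem over leaf, 54 of the 100 were called, against 4.3% (2159), and for root over leaf 99 of the 100, against 8.25% (4143). No member was called in the opposite direction in these 3 comparisons, which the choice of members fixed in advance. The median log2 difference of the members was 0.99 for root over stem, 1.17 for stem over leaf and 2.28 for root over leaf, beside 0.09, 0.05 and 0.18 for all unigenes tested. All 3 comparisons called 9 members, against 0.0796% of all unigenes tested. Both comparisons with leaf but not root over stem called 45, against 3.31%, both comparisons with root but not stem over leaf called 5, against 0.338%, root over leaf alone called 40, against 4.52%, and 1 was called in none, against 90.8%. The root over stem count was the least steady one. The fit above had tissue as its only factor. It left out the pairing of root and stem by replicate number, which was taken from the values. With the replicate number as a block in the fit to all 9 samples, 17 members were called, against 0.559% of all unigenes tested. The root over stem count was 0 in a limma fit to the 6 root and stem samples alone, which called 0.00796% of all unigenes tested (4). There 90 of the 100 had an unadjusted limma p under 0.05 in either direction, against 9.51% of all unigenes tested. The count was 0 again with the replicate number as a block in that fit, which called 0.0538% of all unigenes tested (27). There 99 of the 100 had an unadjusted limma p under 0.05, against 18.5%. Calls thus fell over all unigenes as well as in the members. Without 1 sample the members' count was both lower and higher. It was 5, 4 and 12 without root replicates 1, 2 and 3, and 10, 3 and 20 without stem replicates 1, 2 and 3. Without leaf replicates 1, 2 and 3 it was 6, 4 and 6. In these fits 0.189% (without stem replicate 2) to 0.784% (without root replicate 3) of all unigenes tested were called, and 0.629% without stem replicate 3. With quantile normalization 31 members were called, against 0.526%, and with median-ratio scaling 13, against 0.482%.

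The step between root and stem depended on how the samples were scaled. When each sample was divided by its median ratio to the others, 70 of the 100 kept both steps above 1. Step 1 was lost in 28 members and step 2 in 2. Stem replicate 3 was the highest stem sample in 76 members after this scaling, against 20 in the values as deposited. This scaling divides stem replicate 3 by 0.750 and stem replicates 1 and 2 by 1.18 and 1.12. It therefore raises stem replicate 3 against them in every unigene, and not only in the members. Stem replicate 3 was also the highest stem sample in each of the 28 that lost step 1. The divisors fixed that outcome in advance, because step 1 was at least 1.238 in every member. With quantile normalization 94 members kept both steps, and stem replicate 3 was the highest stem in 63. The share of all 20528 unigenes with stem replicate 3 highest was not taken after either scaling. The counts of 76 and 63 are therefore not read as particular to the members. The 10 members at ranks 1 to 10 kept both steps under both scalings. With the median ratio this could not fail, since the divisors lie too close together to undo a smaller step of 1.75 or more. Ranks 51 to 100 kept both steps in 29 of 50 with the median ratio and in 45 of 50 with quantile normalization. After median-ratio scaling the members' median log2 difference was 0.79 for root over stem and 2.003 for root over leaf, while the median of all unigenes tested moved to 0.03 for root over leaf.

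The reverse order was the more frequent one among the unigenes above 1 RPKM in all samples. Leaf above stem above root, with no overlap between neighbours, was found in 882 of the 20528 unigenes, beside the 507 with root above stem above leaf. The other orders were rarer, with 146 for stem above root above leaf, 30 for stem above leaf above root, 28 for leaf above root above stem and 8 for root above leaf above stem. Stem therefore lay between root and leaf in most unigenes in which all 3 tissues were fully apart. After median-ratio scaling the falling order held 270 unigenes and the rising order 1286, and after quantile normalization 633 and 1083. These counts carry no test here.

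The members resembled their common profile closely, as the choice required. Pearson correlations over the 9 samples, on the log2(RPKM + 1) scale, between a member and the median profile of the 100 ran from 0.910 to 0.995 with a median of 0.966. The 3 unigenes outside the 100 with the highest correlation to that profile were each under 1 RPKM in at least 1 leaf sample, and the limit of 1 RPKM had left them out. PB.53895.1 (r = 0.996) had 5.03, 5 and 4.76 RPKM in root, 2.56, 2.96 and 2.26 in stem, and 0.91, 0.85 and 1.10 in leaf. PB.7089.2 (r = 0.995) had 2.13, 2.12 and 1.90 RPKM in root, 1.22, 1.30 and 1.2 in stem, and 0.67, 0.49 and 0.64 in leaf. PB.5204.7 (r = 0.994) had 43.11, 40.49 and 23.37 RPKM in root, 8.09, 7.32 and 4.90 in stem, and 0.85, 0.69 and 0.74 in leaf. In all 3 the root samples lay above the stem samples and the stem samples above the leaf samples, as in the members.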

How the data were processed

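The authors mapped paired-end reads to the unigenes of their PacBio transcriptome with hisat2 (HISAT2 2.05 in the submitters' processing notes) and estimated expression with RSEM. The deposited values are RPKM, rounded by the authors to 2 decimals (the methods write FPKM). Reads shared by similar unigenes are divided by RSEM, so near-identical copies have uncertain values. The authors tested with DESeq, which needs counts. RPKM are not counts, and limma was used here.

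Columns were mapped to samples by the sample number in the labels. The 100 members and the rule for named unigenes (ranks 1 to 10, those at the limit, the extremes of level and step, and the 3 closest outside the set) were chosen with earlier results of these data known. Other unigenes are named after their values were seen.

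Limma 3.58.1 in R 4.3.3 was fitted to log2(RPKM + 1) of all 9 samples, with tissue as the factor and moderation with an intensity trend. The added 1 RPKM understates low unigenes. Tested on simulated data, it called 68.5% of 200 unigenes raised by 3 on the log2 scale for root over stem, with 5 false calls among 50225. The simulated samples varied independently, without the shared deviations of root and stem, and only unigenes with higher mean levels were raised. The rise of 3 was also larger than the members' median log2 difference of 0.99 for root over stem. These numbers therefore check the fit only and do not give its accuracy in these data. Other steps used Python 3.11.15, numpy 2.4.6 and pandas 2.3.3. P-values measure only the spread between these samples.

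Replicate numbers 1 to 3 occur in each tissue. Over the unigenes tested, deviations of same-numbered root and stem samples correlated at 0.605, 0.573 and 0.664, all above 0.1, so the numbers were taken to pair root and stem from these values. For numbers 1, 2 and 3 they were 0.352, 0.182 and 0.0259 for root with leaf, and 0.333, 0.128 and -0.03 for stem with leaf. The lowest of each was under 0.1, so root with leaf and stem with leaf were not taken as paired. The main fit left out the pairing of root and stem. Alternatives were other pseudocounts, filters and scalings, the replicate block, fits to 6 samples and leaving out 1 sample.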

Additional observations from a re-analysis of the deposited data

How the results depend on the processing

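No member was called in the opposite direction in any of these fits. In the fits to values as deposited, the choice of members fixed this in advance. For root over stem, where 14 members were called, the count was 25 of the 96 above 5 RPKM in at least 3 samples (0.833% of all 19564 such unigenes), 31 with quantile normalization (0.526% of all unigenes tested), 0 with only the 6 samples compared (90 of 100 with an unadjusted p under 0.05 in limma, against 9.51% of all), and 3 to 20 without 1 sample (3 without stem replicate 2 and 20 without stem replicate 3). The root over stem count was 13 with median-ratio scaling (0.482% of all unigenes tested). It was 12 with a pseudocount of 0.1 (0.563%) and 10 with no filter on low values (0.249% of all 61856). For stem over leaf, where 54 were called, the count was 38 to 59 without 1 sample, and for root over leaf, where 99 were called, 98 to 99. With all 9 samples, the replicate block gave 17, 55 and 99 members for these comparisons and moved no count by over 1.5 times. It called 0.559%, 5.16% and 9.83% of all unigenes tested. The replicate block in fits to the 6 samples compared, chosen after seeing the data, gave 0, 35 and 99 members. Those fits called 0.0538%, 3.06% and 9.24% of all unigenes tested. Over all unigenes, the 218 called for root over stem were 4 in the fit to 6 samples, 27 with the replicate block in that fit, and 95 to 394 without 1 sample. Those called for stem over leaf without 1 sample were 1361 to 3392 (2.71% to 6.75% of all unigenes tested). For root over leaf they were 2793 to 4914 (5.56% to 9.78%). The cause was not tested.

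The set itself depended on the rule. Unigenes with both steps above 1, 507 in the main setting, numbered 270 with median-ratio scaling, 795 with a limit of 0.1 RPKM in all 9 samples, 242 with a limit of 5 RPKM, and 7581 with steps from the tissue means. Of the 100 members, 48 were again among the first 100 with median-ratio scaling, 65 with quantile normalization and 35 with steps from the means. With the limit of 0.1 RPKM it was 36, and with 5 RPKM 26. A limit on the level cannot change a member's steps. Only 26 members passed 5 RPKM in all samples, and all of these stayed. At 0.1 RPKM all 100 kept both steps above 1, and those not among the first 100 were outranked by unigenes newly let in. The median smaller step of the members was 1.14 with median-ratio scaling and 2.005 from the means. Leaving out 1 sample can only widen a gap, and gave 539 to 1065 unigenes (957 without root replicate 3, 866 without stem replicate 1, 1065 without stem replicate 3), 55 to 91 of the members among the first 100 (58, 65 and 55 without those samples), and a median smaller step of 1.40 to 1.49.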
